A study of Mus musculus with 23 samples.

Results

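Glutamate and GABA receptor subunits were followed in punches of the nucleus accumbens (ventral striatum) of mice injected once with cocaine or saline. The genes were those whose annotated symbol begins with the stem of an AMPA, kainate, delta, NMDA or metabotropic glutamate receptor or of a GABA-A or GABA-B receptor and continues with a subunit number or, for the NMDA receptor, a subunit letter. The array carried 76 probes annotated to 36 such genes. A probe was kept where the detection p-value deposited with it lay under 0.01 on at least 5 arrays. This left 42 probes of 23 receptor subunit genes, among 10138 genes with 18509 probes in all. The detection filter used no difference between groups, but the genes were chosen with earlier results of these data known.

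Each of 23 C57BL6 mice gave 1 tissue punch, taken 1 h after an intraperitoneal injection, and 1 Illumina MouseWG-6 v2 bead array. The groups were Foxp2 S321X/+ heterozygotes given cocaine at 15 mg/kg (6 animals), Foxp2 S321X/+ heterozygotes given saline (5), wild-type littermates given cocaine at 15 mg/kg (6) and wild-type littermates given saline (6). The heterozygotes carry 1 copy of the S321X allele of Foxp2, a DNA-binding factor of striatal projection neurons, in every cell, and no group was left without an injection. The animals' ages are not given in the sources used here, and both sexes were present in each group.

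Glutamate released by cortical, thalamic, hippocampal and amygdalar axons excites the projection neurons of the accumbens through AMPA, kainate and NMDA receptors, which are ion channels built from several subunits. Metabotropic glutamate receptors act more slowly through G proteins, and those of group III, which include Grm4, Grm7 and Grm8, sit mainly on presynaptic terminals and lower transmitter release. GABA, the transmitter of the projection neurons themselves and of local interneurons, acts through GABA-A channels and through the G protein-coupled GABA-B receptor. In this region the composition of the AMPA and NMDA receptors is known for its changes after repeated cocaine.

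All values below are log2 intensities after background correction and normalization, differences are on the same log2 scale, and a level of one probe was not set against that of another. A gene is represented by its brightest tested probe. A gene is said to have risen or fallen where the Benjamini-Hochberg adjusted p of limma's moderated test, taken over all 18509 probes, was under 0.05. Between 16102 and 17933 probes were detected per array, and pairs of arrays correlated with r = 0.967 to 0.991 over the probes tested. The 3 detected probes of Foxp2 were lower in heterozygotes than in wild type by 0.48 to 0.61 after saline, where 4 or 5 of 5 heterozygous arrays were under the lowest wild-type array, and by 0.53 to 0.71 after cocaine, where 1 to 3 of 6 did. None of these differences passed the adjusted test (adjusted p = 0.708 to 0.999, limma), and after cocaine the genotypes overlapped on each of the 3 probes. Heterozygous cocaine arrays 9, 16 and 19 stood apart on the first principal component (15.69% of the variance), with values of 27.3 to 31.7, and wild-type cocaine array 24 came next at 18.8.

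Markers of the cells in the punch moved with the injection, and their part in the results that follow was not tested unless a value is given. A marker score is the mean log2 deviation of a list from the mean of all arrays. Of 10 listed markers of excitatory cortical neurons 8 were measured, and their score ranged from -0.27 to 1.18 in heterozygotes given cocaine, from -1.85 to -0.13 in heterozygotes given saline, from -0.36 to 0.71 in wild type given cocaine and from -0.82 to 0.04 in wild type given saline. Emx1 of that list was detected on 0 arrays. Of 16 listed markers of striatal projection neurons 13 were measured, and their score ranged from -0.69 to 0.02 in heterozygotes given cocaine, from 0.06 to 0.26 in heterozygotes given saline, from -0.25 to 0.21 in wild type given cocaine and from 0.09 to 0.28 in wild type given saline. Adcy5 of that list was detected on 0 arrays. Averaged over genotypes, 6 of the 8 excitatory markers were higher after cocaine and 8 of the 13 striatal markers were lower. Of the striatal interneuron markers 3 of 8 were higher (score -0.01 to 0.25 in heterozygotes given cocaine, -0.26 to 0.11 in heterozygotes given saline, -0.07 to 0.22 in wild type given cocaine, -0.29 to -0.05 in wild type given saline). These were Npy, Vip and Cort (0.26 to 1.13), while the cholinergic markers Chat and Slc5a7 had differences of -0.44 each (adjusted p = 0.185 and 0.103, limma) and Nos1 one of -0.10. In heterozygotes Vip (1.47) and Cort (1.20) were called higher and Slc5a7 (-0.91 ± 0.22, adjusted p = 0.0297) lower, with Chat at -0.78 (adjusted p = 0.128). None of the measured markers of astrocytes (8), oligodendrocytes (6), their precursors (3), microglia (9) and endothelial cells (5) passed the test, and the only measured choroid plexus marker was lower. In tissue punches, fewer cells of a type and less RNA per cell cannot be told apart. Both the excitatory and the striatal score moved with the injection. A score held constant may therefore also take up a response of its own genes, such as Nrn1 or Penk, to cocaine.

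Receptor subunit genes passed the adjusted test for cocaine at about the share of all genes. Averaged over genotypes, 1 of 23 rose (Grm8) and 0 fell, against 3.16% of all genes that rose, 1.29% that fell and 4.45% called in either direction (451 of 10138). The median difference was -0.01, the same as that of all genes, with 10 positive and 13 negative differences between -0.28 and 0.59. At an unadjusted p under 0.05 there were 9 of 23, against 19.2% of all genes. By family, 1 of 5 metabotropic glutamate receptor genes passed the adjusted test and 0 of 4 AMPA, 0 of 4 kainate, 0 of 3 NMDA, 0 of 6 GABA-A and 0 of 1 GABA-B receptor genes did.

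**Figure D1:**
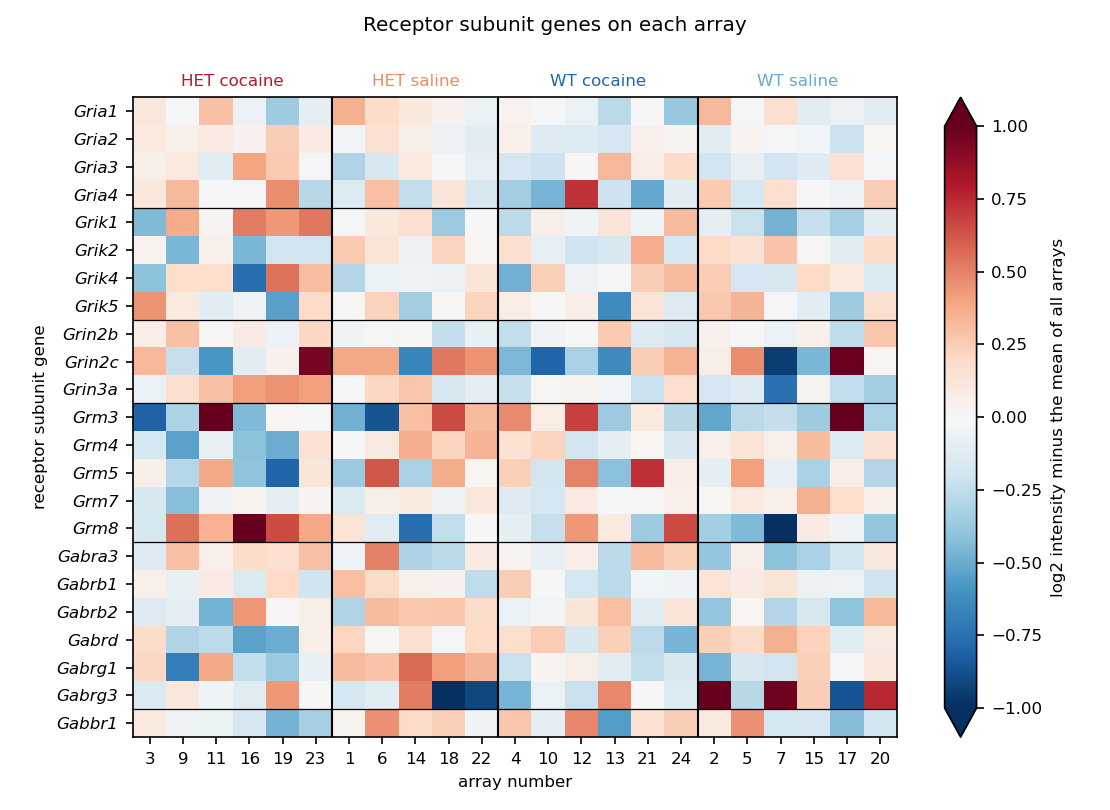
Log2 intensity of the 23 receptor subunit genes (rows, grouped by receptor family) on each of the 23 arrays (columns, array numbers), shown as the deviation from the gene's mean over all arrays, with colours limited at -1 and 1. Grm8 is mostly above its mean in the 6 heterozygous cocaine arrays, Grm4 is lowest on arrays 9, 19 and 16 of that group, and Grm3, Grin2c and Gabrg3 vary most within groups.

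Grm8, a group III receptor that dampens glutamate release, was higher after cocaine. It ranged from 6.73 to 8.07 in heterozygotes given cocaine (median 7.38), and its values in heterozygotes given saline were 6.16, 6.67, 6.79, 6.92 and 7.04. In wild type it ranged from 6.56 to 7.56 after cocaine (median 6.91) and from 5.59 to 6.99 after saline (median 6.55). Within each genotype the groups overlapped: 5 of 6 heterozygous and 3 of 6 wild-type cocaine arrays lay above all saline arrays of their genotype, and 7 of 12 cocaine arrays lay above all 11 saline arrays. The difference averaged over genotypes was 0.59 ± 0.16 (SE; 95% interval 0.25 to 0.93; adjusted p = 0.0462, limma), a 1.5-fold level. In heterozygotes it was 0.68 ± 0.24 (adjusted p = 0.14) and in wild type 0.49 ± 0.23 (adjusted p = 0.574), and neither passed on its own. Arrays 9, 16 and 19 held the 3 highest heterozygous cocaine values, 7.46, 8.07 and 7.56. Without these arrays the averaged difference was 0.44 (adjusted p = 0.357), and in fits that held the excitatory or the striatal score constant it was 0.21 or 0.08 (adjusted p = 1.00 in both). With blocks of 6 array numbers in the fit it was 0.65 and not called (adjusted p = 0.0557). Within the 4 blocks it was 0.05, 1.59, 0.87 and 0.52, the second block holding only 1 saline array. That array, wild-type saline array 7, had the lowest Grm8 value of its group, 5.59, far from the next at 6.469. The probe was detected on 21 of 23 arrays, and of the 2 Grm8 probes on the array it alone passed the detection filter.

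Grm8 has more than one annotated transcription start. The 250 bases before its most upstream start in the RefSeq promoter table (GRCm38.p6, chr6:28135147-28135396, minus strand) are shown because Grm8 is the receptor gene that rose. The capitals mark a match to TGANTCA, in which N is any base. The AP-1 motif bound by Fos and Jun dimers has C or G there, and the marked stretch has T. Genes of Fos and Jun are known to respond to cocaine, but whether their products act on Grm8 was not tested.
Grm8: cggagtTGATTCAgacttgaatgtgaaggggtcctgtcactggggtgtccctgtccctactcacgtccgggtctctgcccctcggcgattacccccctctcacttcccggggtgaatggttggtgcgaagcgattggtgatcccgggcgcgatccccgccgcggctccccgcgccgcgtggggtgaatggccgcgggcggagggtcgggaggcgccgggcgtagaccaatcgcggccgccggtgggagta
The match begins 244 bases before the start. The windows before the other Grm8 starts, chr6:28126427-28126676 and chr6:28134422-28134671, held 0 matches to TGANTCA. On either strand, TGANTCA was found in 6.75% of 32851 promoter windows of this length and in 1 of 22 windows of the 15 receptor subunit genes that have one in the table. The cyclic AMP response element TGACGTCA was found in 0 of those 22 windows and in 1.55% of all windows, its core TGACG in 1 and in 17.8%, and the EGR motif GCGNGGGCG in 2 and in 4.7%. TGACG is part of TGACGTCA, and the window that held it is that of Grm8 at chr6:28134422-28134671. A match of letters is not a measured binding site.

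Grm4, a group III receptor found on terminals of striatal projection neurons and of cortical axons, was the receptor subunit gene that fell in heterozygotes. Its values ranged from 9.44 to 10.11 in heterozygotes given cocaine (median 9.67), and in heterozygotes given saline they were 9.97, 10.06, 10.19, 10.31 and 10.33. In wild type they ranged from 9.78 to 10.19 after cocaine (median 9.93) and from 9.83 to 10.28 after saline (median 10.06). In heterozygotes 5 of 6 cocaine arrays lay below all saline arrays and array 23 (10.11) overlapped with them. The lowest 3 cocaine arrays were 9 (9.44), 19 (9.47) and 16 (9.55), while the wild-type groups overlapped widely. The difference was -0.46 ± 0.12 in heterozygotes (adjusted p = 0.0376, limma), where 2.68% of all genes were called (0.730% lower, 1.95% higher), and -0.10 ± 0.11 in wild type (adjusted p = 0.85). Averaged over genotypes it was -0.28 ± 0.08 and missed the threshold (adjusted p = 0.0508). That averaged difference was called with an offset of 50, array weights, robust moderation with an intensity trend, detection on all arrays, the authors' values and sex as a term (adjusted p = 0.0276 to 0.0483), and in 7 of 23 fits without 1 array. Without arrays 9, 16 and 19 the difference in heterozygotes was -0.24 (adjusted p = 0.855), and in fits that held the excitatory or the striatal score constant it was -0.11 or -0.05. With blocks of 6 array numbers it was -0.47 and not called (adjusted p = 0.0689), and the cocaine minus saline difference over both genotypes within the 4 blocks was -0.08, -0.19, -0.45 and -0.36. A second, dimmer Grm4 probe differed by -0.27 ± 0.22 in heterozygotes and by -0.40 ± 0.21 in wild type and passed in neither (adjusted p = 0.632 and 0.629).

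The other metabotropic receptors did not pass the test. Grm7, the remaining group III receptor measured, differed by -0.14 ± 0.06 averaged over genotypes (adjusted p = 0.216), and its 3 probes had the same sign, from -0.15 to -0.07. Grm5, which couples to phospholipase C and is abundant in striatal projection neurons, differed by -0.01 ± 0.15 on its brightest probe and by -0.26 ± 0.13 and -0.10 ± 0.13 on 2 dimmer ones. The dimmest Grm5 probe was not well above background on any heterozygous saline array. Grm3, a group II receptor expressed in glia as well as neurons, differed by 0.07 ± 0.24 and was detected on 9 of 23 arrays. Grm8 and Grm4, both of group III, thus had differences of opposite sign.

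**Figure D2:**
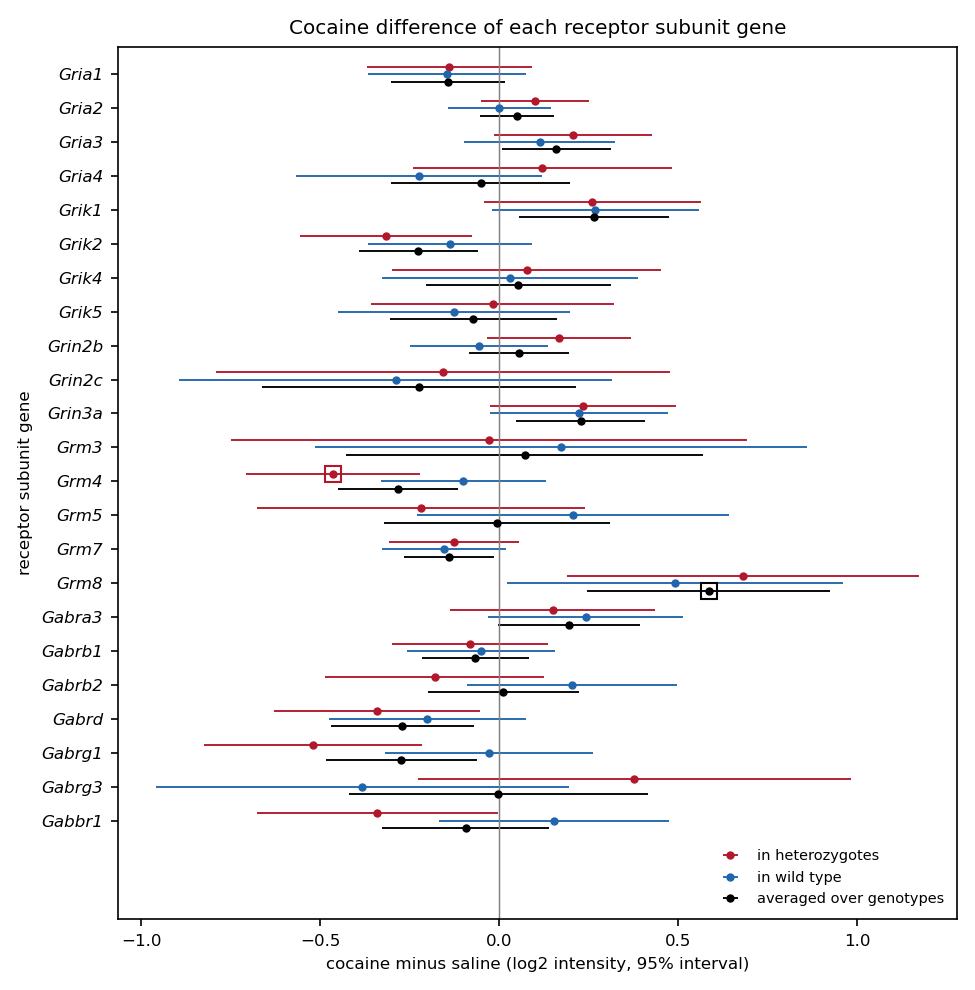
Cocaine minus saline difference (log2 intensity, with 95% interval) of each receptor subunit gene in heterozygotes (red), in wild type (blue) and averaged over genotypes (black); open squares mark an adjusted p under 0.05. Only Grm8 averaged over genotypes (0.59) and Grm4 in heterozygotes (-0.46) carry a square.

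The 4 AMPA receptor genes were all measured, and none passed on its brightest probe. Gria1, which forms channels with Gria2 and can form calcium-permeable channels without it, differed by -0.14 ± 0.08 between cocaine and saline (adjusted p = 0.348). Gria2, the subunit that makes the channel impermeable to calcium, differed by 0.05 ± 0.05 (95% interval -0.05 to 0.15), and Gria4 by -0.05 ± 0.12. Gria3, an X-linked subunit, differed by 0.16 ± 0.07 (adjusted p = 0.253), and by -0.03 with the striatal score held constant. The probes of Gria1 and Gria2 disagreed in sign, with 2 of 4 and 2 of 3 positive, so no direction was given for them.

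Gria3 stood out by its probes, an observation made after its values were seen. All 4 probes were higher after cocaine, by 0.16 ± 0.07, 0.25 ± 0.09, 0.36 ± 0.11 and 0.41 ± 0.11, and 1 of them passed the test (adjusted p = 0.0398, limma). On that probe, ILMN_1238789, the values ranged from 7.86 to 8.81 in heterozygotes given cocaine (median 8.37), and in heterozygotes given saline they were 7.63, 7.74, 7.75, 7.81 and 8.24. In wild type they ranged from 7.91 to 8.50 after cocaine (median 8.08) and from 7.51 to 8.32 after saline (median 7.80). The groups overlapped in both genotypes, and the 3 arrays that stand apart held the 3 highest heterozygous cocaine values. The difference was 0.55 ± 0.16 in heterozygotes and 0.27 ± 0.15 in wild type (adjusted p = 0.0742 and 0.648), and 0.29 averaged over genotypes without arrays 9, 16 and 19 (adjusted p = 0.35). With the excitatory or the striatal score held constant the averaged difference was 0.15 or 0.10. Probes to the same gene share the animals and are not replicates of the comparison.

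**Figure D3:**
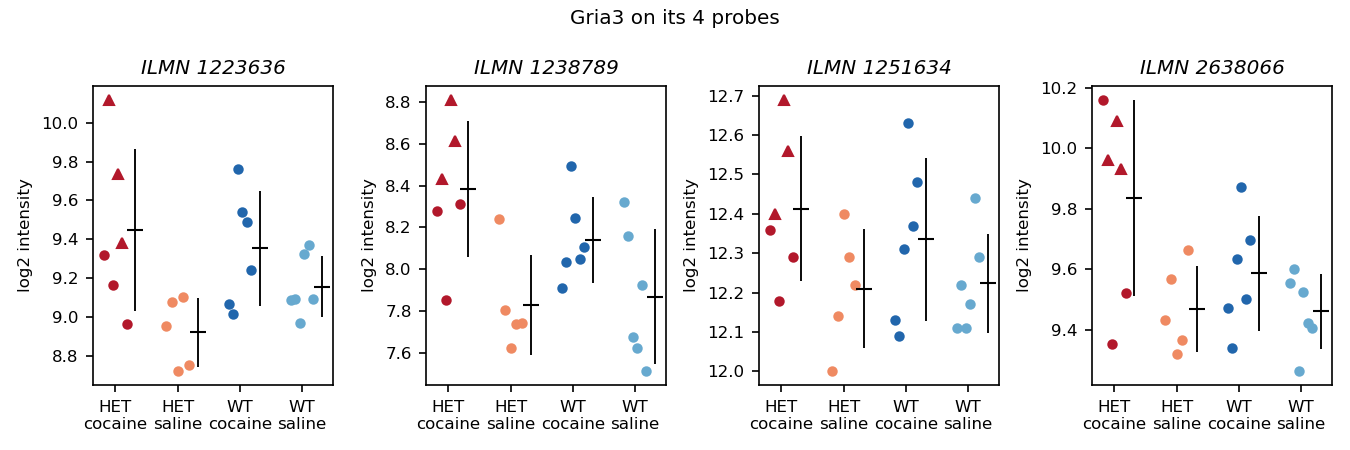
Log2 intensity of Gria3 on its 4 probes in each group (points are arrays, triangles are heterozygous cocaine arrays 9, 16 and 19, the bar is mean ± SD). On each probe the heterozygous cocaine mean is the highest of the 4 groups, and in the second panel from the left, ILMN_1238789, it is 8.38 against 7.83 after saline.

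Among the kainate receptor genes, Grik2 and Grik1 had differences of opposite sign that did not pass the adjusted test. Grik2, the subunit of the widespread low-affinity kainate receptor, ranged from 8.81 to 9.32 in heterozygotes given cocaine (median 9.08), and in heterozygotes given saline its values were 9.21, 9.29, 9.41, 9.49 and 9.53. In wild type it ranged from 9.07 to 9.63 after cocaine (median 9.15) and from 9.16 to 9.56 after saline (median 9.44). The cocaine arrays lay low but overlapped the saline arrays, with 7 of 12 below all 11 of them and 1 above. The averaged difference was -0.23 ± 0.08 (adjusted p = 0.117, limma), and a dimmer Grik2 probe differed by -0.01 ± 0.09. With the striatal score held constant the difference of the brighter probe turned to 0.03.

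Grik1, a kainate subunit known from interneurons, had a positive difference of about the same size in both genotypes. It ranged from 7.95 to 8.92 in heterozygotes given cocaine (median 8.79), and in heterozygotes given saline its values were 8.03, 8.37, 8.39, 8.50 and 8.56. In wild type it ranged from 8.13 to 8.71 after cocaine (median 8.40) and from 7.92 to 8.30 after saline (median 8.17). In wild type 5 of 6 cocaine arrays lay above all saline arrays, and in heterozygotes 4 of 6 did and 1 lay below them. The averaged difference was 0.26 ± 0.10 (adjusted p = 0.152, limma). The high-affinity subunits Grik4 and Grik5, which need a partner such as Grik2 to form channels, differed by 0.05 ± 0.13 and -0.07 ± 0.11.

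Of the NMDA receptor genes, Grin3a had the smallest p-value for cocaine and for genotype, without passing either adjusted test. Grin3a encodes a subunit that lowers the calcium permeability and the magnesium block of the receptor. Its values ranged from 11.35 to 11.87 in heterozygotes given cocaine (median 11.77), and in heterozygotes given saline they were 11.26, 11.32, 11.40, 11.63 and 11.70. In wild type they ranged from 11.19 to 11.59 after cocaine (median 11.41) and from 10.67 to 11.45 after saline (median 11.21). All 4 groups overlapped, and wild-type saline array 7 was the lowest of all arrays. The cocaine difference averaged over genotypes was 0.23 ± 0.09 (adjusted p = 0.149, limma), with 0.23 ± 0.13 in heterozygotes and 0.22 ± 0.12 in wild type. Grin2b, the subunit that slows the decay of the NMDA current, differed by 0.06 ± 0.07. Grin2c, best known from the cerebellum, differed by -0.22 ± 0.21 and was detected on 10 of 23 arrays.

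The GABA-A receptor genes with the smallest p-values, Gabrd and Gabrg1, were lower after cocaine without passing the adjusted test. Gabrd, the subunit of extrasynaptic receptors that carry tonic inhibition, ranged from 10.13 to 10.85 in heterozygotes given cocaine (median 10.39), and in heterozygotes given saline its values were 10.66, 10.68, 10.83, 10.87 and 10.88. In wild type it ranged from 10.20 to 10.92 after cocaine (median 10.67) and from 10.55 to 11.02 after saline (median 10.88). The cocaine groups spread more widely downwards, with 7 of 12 cocaine arrays below all 11 saline arrays. The averaged difference was -0.27 ± 0.10 (adjusted p = 0.118, limma), and a second probe gave -0.26 ± 0.10 (adjusted p = 0.172). With the striatal score held constant the difference of the first probe turned to 0.01.

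Gabrg1 encodes a gamma subunit with a restricted distribution in the brain. It ranged from 6.97 to 8.04 in heterozygotes given cocaine (median 7.50), and in heterozygotes given saline its values were 7.95, 7.98, 8.005, 8.08 and 8.23. In wild type it ranged from 7.42 to 7.72 after cocaine (median 7.53) and from 7.20 to 7.90 after saline (median 7.58). The heterozygous saline arrays formed a narrow high group, above all 6 wild-type saline arrays and above 5 of 6 heterozygous cocaine arrays. The cocaine difference was -0.52 ± 0.15 in heterozygotes (adjusted p = 0.0645, limma) and -0.03 ± 0.14 in wild type (adjusted p = 0.976). Without arrays 9, 16 and 19 the difference in heterozygotes was -0.22. These values are of the brighter probe. On a second, dimmer Gabrg1 probe the heterozygous saline arrays spread from 6.304 to 7.562. They overlapped the wild-type saline arrays (5.471 to 6.878) and the heterozygous cocaine arrays (5.685 to 7.405). Its wild-type means were 6.51 after cocaine and 6.248 after saline. That probe was detected on 1 of 6 heterozygous cocaine and 2 of 6 wild-type saline arrays.

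The remaining GABA receptor genes differed little when averaged over genotypes. Gabra3, the alpha subunit of a synaptic receptor type sensitive to benzodiazepines, differed by 0.20 ± 0.10 (adjusted p = 0.284, limma). The beta subunits Gabrb1 and Gabrb2, which help form the GABA binding site, differed by -0.07 ± 0.07 and 0.01 ± 0.10, and the gamma subunit Gabrg3 by 0.00 ± 0.20. Gabbr1, the GABA-B subunit that binds GABA, ranged from 9.99 to 10.56 in heterozygotes given cocaine (median 10.35), and in heterozygotes given saline its values were 10.43, 10.50, 10.66, 10.70 and 10.92. In wild type it ranged from 9.91 to 10.95 after cocaine (median 10.67) and from 10.03 to 10.92 after saline (median 10.30). The wild-type groups overlapped fully, while 5 of 6 heterozygous cocaine arrays lay below all heterozygous saline arrays. The difference averaged over genotypes was -0.09 ± 0.11 (adjusted p = 0.74).

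**Figure D4:**
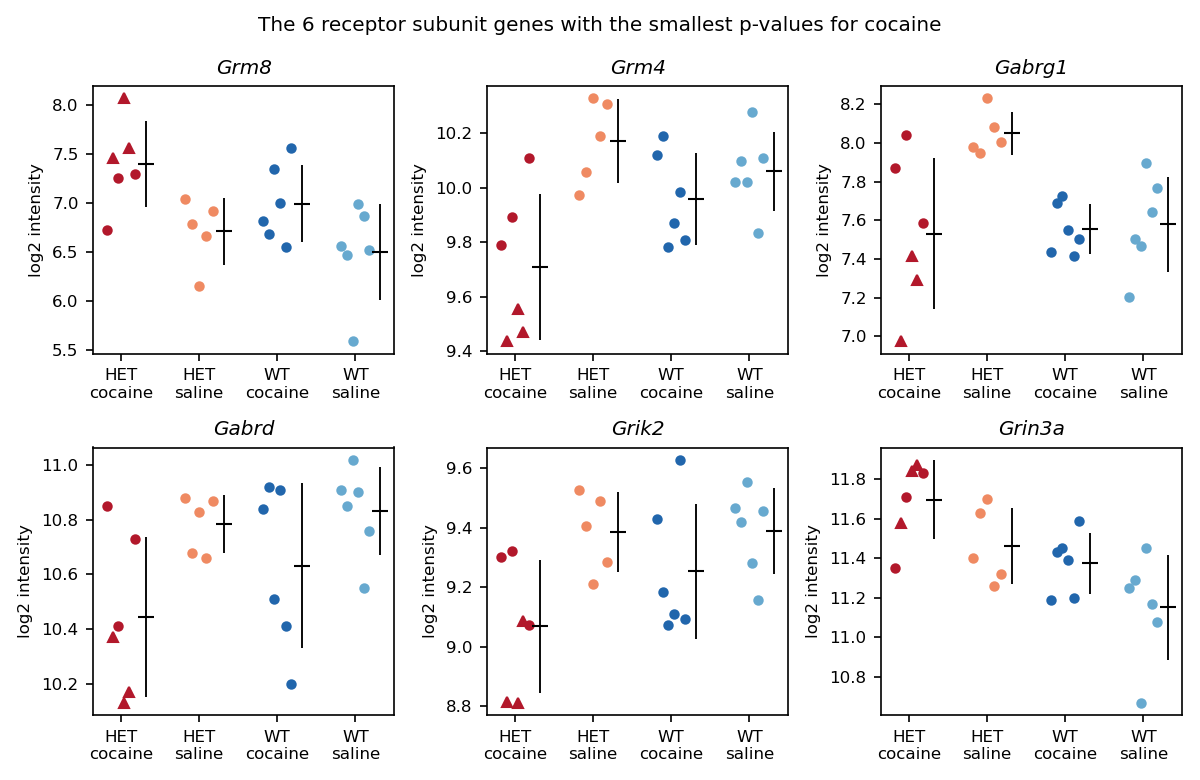
Log2 intensity by group of Grm8, Grm4, Gabrg1, Gabrd, Grik2 and Grin3a (points are arrays, triangles are heterozygous cocaine arrays 9, 16 and 19, the bar is mean ± SD). The triangles are the 3 lowest heterozygous cocaine values of Grm4, Gabrg1 and Gabrd and the 3 highest of Grm8. Gabrg1 of the heterozygous saline arrays lies within 7.95 to 8.23.

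Within single genotypes the receptor subunit genes showed 1 call in heterozygotes and 0 in wild type. In heterozygotes Grm4 fell and 6 of 23 genes had an unadjusted p under 0.05, against 16.5% of all genes. In wild type 0 of 23 passed the adjusted test, as did 0.109% of all genes (11 of 10138), and 1 of 23 had an unadjusted p under 0.05, against 8.58% of all genes. The 2 responses were compared by their interaction, the heterozygous minus the wild-type cocaine difference, for which 0 of 23 receptor subunit genes and 0% of all genes were called. At an unadjusted p under 0.05 there were 3 of 23, against 4.81% of all genes. They were Gabrg1 (-0.49 ± 0.20), Grm4 (-0.36 ± 0.16) and Gabbr1 (-0.49 ± 0.23), each with an adjusted p of 0.927 (limma). So a difference between the genotypes in the Grm4 response was not shown.

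Heterozygotes and wild type were compared to see whether 1 mutated copy of Foxp2 went with other receptor levels. Of the 23 receptor subunit genes 0 were called averaged over injections, after saline or after cocaine, and 0% of all genes were called in each. At an unadjusted p under 0.05 there were 3, 3 and 3 of 23, against 4.73%, 3.71% and 6.65% of all genes. Averaged over injections, Grin3a was higher in heterozygotes by 0.32 ± 0.09 (95% interval 0.14 to 0.50; adjusted p = 0.785, limma), and 6 of 11 heterozygous arrays lay above all 12 wild-type arrays. Its difference was 0.31 ± 0.13 after saline and 0.32 ± 0.12 after cocaine, and 0.28 averaged over injections without arrays 9, 16 and 19. Gabrg1 differed by 0.22 ± 0.10 averaged over injections, by 0.47 ± 0.15 after saline and by -0.02 ± 0.14 after cocaine, and Grik1 by 0.22 ± 0.10 averaged over injections (adjusted p = 1.00 for both averages). After saline all 5 heterozygous arrays lay above all 6 wild-type arrays on the brighter Gabrg1 probe, while on the dimmer one they overlapped. There Gabrg3 (-0.65 ± 0.29) joined Gabrg1 and Grin3a with an unadjusted p under 0.05 (adjusted p = 0.999 for each, limma). After cocaine, where the 3 arrays that stand apart belong to the heterozygotes, Gria2 (0.15 ± 0.07) and Grm4 (-0.25 ± 0.11) were the others with an unadjusted p under 0.05 beside Grin3a.

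Within groups, the receptor subunit genes differed widely in how much they varied between arrays. The residual standard deviation, which leaves out group means, had a median of 0.25 over the 23 genes, against 0.203 over all genes. It was highest for Grm3 (0.63), Grin2c (0.55) and Gabrg3 (0.52) and lowest for Gria2 (0.09). The part of probe brightness in this spread was not tested. Grm3 and Grin2c were detected on 9 and 10 of 23 arrays, and Gabrg3 on all 23. For Grm8, the gene that rose, it was 0.42.

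Some of this variation followed the marker scores. Group means were held fixed and each gene was fitted against a score, with p-values adjusted over all probes. Grm4 changed by -0.28 ± 0.07 per unit of the excitatory score (adjusted p = 0.0212, limma), the only call among the 23 genes, against 3.17% of all genes. Against the striatal score Grm4 changed by 0.82 ± 0.17 (adjusted p = 0.0118) and Grik2 by 0.72 ± 0.19 (adjusted p = 0.0408), 2 of 23 genes against 2.92% of all genes. Both were higher on arrays with more striatal marker signal, and both had lower means after cocaine. Grm8 had a slope of the opposite sign, -1.38 ± 0.40, that did not pass (adjusted p = 0.0685). Without arrays 9, 16 and 19 no receptor subunit gene was called against either score (0.631% and 0% of all genes), where Grm4 had a slope of -0.20 on the excitatory score (adjusted p = 0.381) and of 0.89 on the striatal score (adjusted p = 0.796), and Grik2 one of 0.88 on the striatal score (adjusted p = 0.873).

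**Figure D5:**
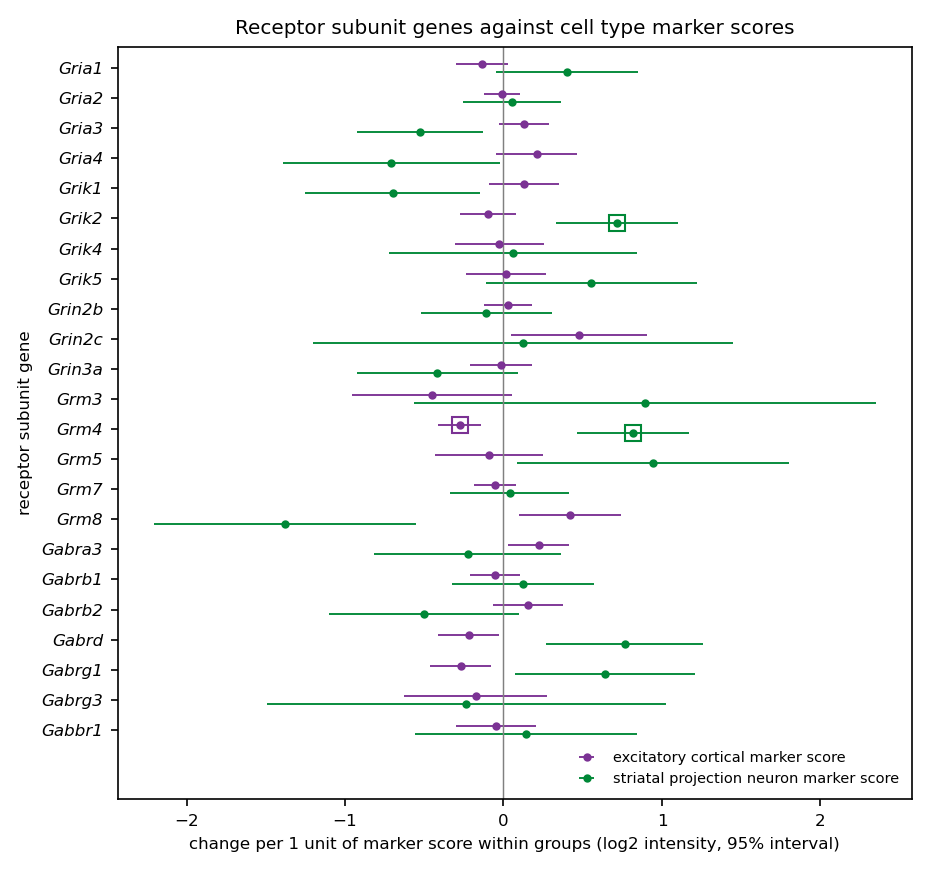
Change of each receptor subunit gene (log2 intensity, with 95% interval) per 1 unit of the excitatory cortical (purple) or striatal projection neuron (green) marker score, with group means held fixed; open squares mark an adjusted p under 0.05. Grm4 is marked for both scores (-0.28 and 0.82) and Grik2 for the striatal score (0.72).

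Differences between the sexes came from the values the authors had processed, the only columns tied to an animal (12 females and 11 males), with the 4 groups in the fit. Of 20 receptor subunit genes with values, 2 passed the test, against 1.82% of all genes. Gria1 was lower in females (female minus male -0.25 ± 0.06, adjusted p = 0.03, limma), with values of 11.93 to 12.41 in females (median 12.23) and 12.23 to 12.65 in males (median 12.42). The ranges overlapped, and 6 of 12 females lay below all males. The 4 Gria1 probes had differences of -0.26 to -0.14, and 2 of them passed.

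Gria3 was higher in females by 0.23 ± 0.06 (adjusted p = 0.043, limma), with values of 12.14 to 12.67 in females (median 12.36) and 11.98 to 12.37 in males (median 12.11). Again 6 of 12 females lay beyond all males. The other 3 Gria3 probes differed by 0.02, -0.07 and 0.05 and did not pass. In every group the females carry the higher replicate numbers of the labels, so that sex and whatever order the numbers stand for cannot be told apart.

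Some genes of proteins that work with these receptors also rose. Of 12 measured auxiliary subunits and binding proteins of AMPA and kainate receptors 3 rose after cocaine, averaged over genotypes, against 3.16% of all genes that rose. Cnih3, a cornichon protein that slows AMPA receptor closing, rose by 0.83 ± 0.15 (adjusted p = 0.00237, limma), and the neuronal pentraxins Nptx2 and Nptx1, secreted proteins that cluster AMPA receptors, by 0.47 ± 0.09 and 0.68 ± 0.18 (adjusted p = 0.00684 and 0.0357). Of 15 excitatory scaffold and trafficking genes 2 rose, namely Dlgap1, which links PSD-95 to Shank proteins, by 0.46 ± 0.10 and Homer2, which binds group I metabotropic receptors, by 0.40 ± 0.10. No gene fell in either list. Their medians were 0.01 and -0.01, against -0.01 for all genes.

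On the inhibitory side 0 of 8 postsynaptic and GABA-B auxiliary genes passed, the smallest p belonging to Slitrk3 (0.22 ± 0.08, adjusted p = 0.163, limma), an adhesion protein of inhibitory synapses. Of 3 cerebellin genes, ligands of delta receptors, 0 passed. Cbln2 differed by 0.62 ± 0.22, Cbln4 by -0.31 ± 0.13 and Cbln1 by -0.10 ± 0.13 (adjusted p = 0.113, 0.207 and 0.779, limma). Among 14 genes of glutamate and GABA synthesis and transport the vesicular glutamate transporters Slc17a7 (1.09 ± 0.24) and Slc17a6 (0.48 ± 0.13) rose, and both also stand in the list of excitatory cortical markers. In heterozygotes the auxiliary gene Cnih3 rose by 1.13 ± 0.21 and the scaffold gene Homer2 by 0.69 ± 0.15 (adjusted p = 0.00686 and 0.0145), and Nptx2, Dlgap1 and Slc17a7 were also called. There Slc17a8, a vesicular glutamate transporter of cholinergic interneurons, fell by 0.61 ± 0.13 (adjusted p = 0.0155), as did the cholinergic marker Slc5a7 (-0.91), with Chat at -0.78. The part of these cells in the Slc17a8 result was not tested. In wild type 0 genes of these 5 lists were called. Without arrays 9, 16 and 19 none of the 5 lists held a call averaged over genotypes, where Cnih3 differed by 0.68 (adjusted p = 0.0514) and Nptx2 by 0.42 (adjusted p = 0.0988), and the excitatory markers then also gave 0 calls and the striatal markers 1. In fits that held either marker score constant there were 0 calls in these lists as well. With the excitatory score the averaged differences were 0.34 for Cnih3, 0.31 for Nptx2, -0.0016 for Nptx1, 0.13 for Dlgap1 and 0.14 for Homer2, and that of Slc17a8 in heterozygotes was -0.30.

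Of the 36 annotated genes, 13 did not reach the detection filter and were not tested. They were the GABA-B subunit Gabbr2, the GABA-A subunits Gabra4, Gabra5, Gabra6, Gabrq, Gabrr1, Gabrr2 and Gabrr3, the kainate subunit Grik3, the NMDA subunits Grin2a, Grin2d and Grin3b, and the metabotropic receptor Grm6. All 4 AMPA receptor genes passed it, as did 4 of 5 kainate, 3 of 6 NMDA, 5 of 6 metabotropic, 6 of 13 GABA-A and 1 of 2 GABA-B receptor genes. A probe that is not detected gives no level for its gene.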

How the data were processed

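Expression was measured on Illumina MouseWG-6 v2 arrays from 23 mice in 4 groups; per the labels' protocols, the mirVana kit gave total RNA, and TotalPrep-96 labelled the cRNA with biotin. The deposited table holds the intensity of each probe, non-normalized per the file headers, and 24.9% to 30.3% of the values per array lie below 0 (no name of the background step stands in the sources used here). Beside it, per the file headers, stands a detection p-value. The authors also deposited processed values, which lie on a log2 scale; the sources used here do not name their software. The columns of the raw table give genotype, injection and an array number, but not the animal, so sex was tested in the authors' values only. Those columns run through the groups in the same order as the labelled samples. If the order of animals is also the same, arrays 1 to 12 are males and arrays 13 to 24 females. Each block of 6 array numbers would then hold a single sex, and sex and array number could not be told apart.

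The neqc function of limma 3.58.1 (R 4.3.3, offset 16) corrected background and quantile normalized the arrays before the detection filter. The array's annotation table pairs 34885 probes with a single gene, 18 with several and 10378 with no gene. Tested probes without a single gene (2645) counted in the p-value adjustment but stand for no gene. A linear model of the 4 groups over all arrays used limma's empirical Bayes moderation on 19 residual degrees of freedom, 7 two-sided comparisons and Benjamini-Hochberg adjustment, and the script was tested on simulated data. Receptor subunit genes that were called, the 6 with the smallest p for cocaine, and the 3 with the smallest p for genotype and for the interaction were described with their values. The number of arrays limits the precision. The genes, the lists of partners and markers, the rule for describing them and the alternatives were chosen with earlier results of these data known. Probes are named because different probes of a gene can disagree. Slopes on marker scores, and the partner and marker lists under other settings, were added after seeing the data.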

Additional observations from a re-analysis of the deposited data

Results flagged for a closer look

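A single array lay far from the rest of its group in 7 of 92 combinations of receptor subunit gene and group, by Dixon's gap test, and chance flags about 1 in 20 such groups. Grm8, the gene that rose with cocaine, was 5.592 on wild-type saline array 7, below the next value of that group at 6.469, and without that array its cocaine difference averaged over genotypes was 0.49 and no longer called. Gria2 was 13.7 on heterozygous cocaine array 19, one of the 3 arrays that stand apart, above 13.55. Gria4 was 7.777 on wild-type cocaine array 12, above 6.947, and Grik5 was 8.818 on wild-type cocaine array 13, below 9.322. Gabrb2 was 8.697 on heterozygous saline array 1, below 9.186. Grin2c and Grm3, detected on 10 and 9 of 23 arrays, were 5.444 on heterozygous saline array 14, below 6.488, and 7.696 on wild-type saline array 17, above 6.116. The cause of these values was not tested.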

How the results depend on the processing

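No receptor subunit gene was called for genotype, the interaction or cocaine in wild type under any of the alternatives run. Averaged over genotypes, the count of 1 receptor gene became 0 with quantile normalization without background correction, no filter on detection, blocks of 6 array numbers, without arrays 9, 16 and 19, and with either marker score as a covariate. It became 2 with an offset of 50, robust moderation with an intensity trend, array weights, or any probe counted, and lay between 0 and 3 when each array was left out. With the offset, moderation and weights the added gene was Grm4 (lower). With detection on all arrays, in the authors' values and with sex as a term the count stayed at 1, but the gene was Grm4, since Grm8 was not tested there. In heterozygotes the count of 1 became 0 with no filter, blocks of 6 array numbers, without arrays 9, 16 and 19, with either score and with only the compared groups in the fit, became 2 with detection on all arrays and with array weights, and lay between 0 and 2 when each array was left out. For sex the count of 2 lay between 0 and 2 when each animal was left out: Gria1 was called in 17 and Gria3 in 7 of 23 such fits. Grm8 was called in 9 and Grm4 in heterozygotes in 17 of 23 fits without 1 array, with differences of 0.49 to 0.65 and -0.55 to -0.41. Grm8 lost its call without wild-type saline arrays 2, 5, 7 or 20, wild-type cocaine arrays 12, 13 or 24, heterozygous saline arrays 6, 14, 18 or 22, or heterozygous cocaine arrays 9, 16 or 19, and Grm4 without heterozygous saline arrays 14, 18 or 22 or heterozygous cocaine arrays 9, 16 or 19. The cause was not tested. Over all genes, 451 calls averaged over genotypes became 276 without a filter, 48 without arrays 9, 16 and 19, 9 with the excitatory and 12 with the striatal score, and lay between 255 and 693 when each array was left out. The 272 calls in heterozygotes became 134, 1, 0 and 1 in those settings and 48 with the compared groups alone, and lay between 67 and 521. The 11 in wild type became 6 without the 3 arrays, 7 with the striatal score and 2 with the compared groups alone, and lay between 5 and 13. After saline, 1 gene differed between genotypes with the compared groups alone. Averaged over genotypes, the sign of the cocaine difference changed without a call for Gabrb2, Gabrd, Gria1, Gria3, Grik2, Grik5, Grm4 and Grm5 with the striatal score, and for Gabra3, Gabrb2, Gabrg3 and Grm5 with the excitatory score.

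With the replicate number of the labels as a block, in the authors' values, the receptor gene counts became 0 averaged over genotypes and 0 in heterozygotes, where Grm4 differed by -0.49 (adjusted p = 0.0537, limma). No label ties the numbers to litters or batches, and not every pair of the same number was alike: samples of the same number in different groups correlated with r = -0.258 to 0.425 (median 0.0794, 13 of 33 over 0.1), and of different numbers with -0.394 to 0.354 (median -0.0202, 32 of 165 over 0.1). Dim probes limit Grm3, Grin2c and Grik4, detected on 9, 10 and 17 of 23 arrays.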
